A study of Mus musculus with 10 samples.

Results

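The 44 genes described here encode nucleolar proteins that build ribosomes, and they were chosen by name, as known MYC-responsive genes, from the 31053 genes counted in the series. The choice was made with earlier results of these data known. All 44 were found by their symbol, and all had UMIs (unique molecular identifiers, the counted molecules) in every section. They were read in 10 Visium sections of 7 mouse tissues. Visium counts polyadenylated RNA in barcoded spots of a slide, and a spot can hold several cells. NEJ146 had 4 adjacent sections and NEJ634, NEJ687, NEJ723, NEJ638, NEJ654 and NEJ677 had 1 section each. The study bred Alb-Cre mice, in which the albumin promoter drives Cre in hepatocytes, with CAG-STOP flox/flox-Myc mice, which express human c-MYC once Cre has removed a stop cassette (the ABC-Myc model, on C57BL/6J). The labels give no age, no genotype and no agent for a single tissue and call all 7 tissues hepatoblastoma, although the protocol of the 6 tissues with 1 section speaks of tumor and of normal liver. The study's text names NEJ146, NEJ634, NEJ687 and NEJ723 as tumors and describes 3 healthy livers. The groups compared are the tissues, and the order of the 4 tumor tissues against the remaining 3 is a description. It was not tested, because the labels do not say which tissues are tumor and which are normal liver.

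Ribosomes are assembled in the nucleolus. RNA polymerase I transcribes the long precursor of the ribosomal RNAs, small nucleolar ribonucleoproteins (snoRNPs) guide its chemical modification, and a chain of assembly factors cleaves and folds it into the small and the large subunit. MYC is a transcription factor that, with its partner MAX, binds the E-box sequence CACGTG and is known to raise the transcription of many genes of this pathway in growing cells.

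The letters CACGTG were searched in the RefSeq promoter windows (GRCm38.p6, 250 bases before to 50 bases after the annotated start), which 39 of the 44 members had. The sequence reads the same on both strands, and no other motif was searched. It was present in 9 of the 39 members (23.1%), compared with 8.09% of all genes with a window and 7.15% of the 32851 windows. Of the other 102 ribosome biogenesis genes listed for comparison, 84 had a window and 19 of them (22.6%) held the letters. The stretches around the match in the 9 members are shown because this is the site that the driver of the model is known to bind. Each runs 5′ to 3′ on the strand of its gene, with up to 12 bases on each side and CACGTG in capitals.
Wdr43: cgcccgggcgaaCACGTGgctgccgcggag
Nop2: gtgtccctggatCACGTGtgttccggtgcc
Nle1: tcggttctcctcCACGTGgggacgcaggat
Grwd1: gggccggagtcgCACGTGtgaaaccgga
Pes1: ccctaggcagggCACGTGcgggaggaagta
Imp4: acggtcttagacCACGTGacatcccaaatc
Tsr1: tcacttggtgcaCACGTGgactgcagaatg
Utp20: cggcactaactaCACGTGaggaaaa
Ltv1: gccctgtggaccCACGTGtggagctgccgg

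The stretches of Nop2 (chr6:125131811-125131840, plus strand) and Imp4 (chr1:34439696-34439725, plus strand) lie upstream of the annotated start, with the first base of CACGTG at -60 and -121. In the other 7 members the letters lie just inside the transcribed part, at base 3 in Pes1 (chr11:3963965-3963994, plus strand), 18 in Wdr43 (chr17:71616220-71616249, plus strand), 24 in Nle1 (chr11:82908355-82908384, minus strand), 25 in Tsr1 (chr11:74898092-74898121, plus strand), 29 in Ltv1 (chr10:13193092-13193121, minus strand), 35 in Grwd1 (chr7:45830740-45830767, minus strand) and 38 in Utp20 (chr10:88826765-88826789, minus strand). A match is a run of letters in the reference and no measured binding.

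Summed over the 44 members, the level was higher in each of the 4 tumor tissues than in each of the remaining 3. In CPM (UMIs of a gene per 1e6 UMIs of the spots used, those over tissue or, in NEJ146, of at least 8000 UMIs), the sum was 4661 ± 184 in NEJ146 (SD, n = 4 adjacent sections, at 4490, 4561, 4683 and 4909), 5610 in NEJ687, 6242 in NEJ634 and 7309 in NEJ723. It was 1353 in NEJ638, 1174 in NEJ677 and 965.5 in NEJ654. The lowest tumor tissue was thus 3.45-fold above the highest of the remaining 3, whereas the 4 tumor tissues spanned 1.57-fold and the remaining 3 spanned 1.40-fold. Members took 0.731% of the UMIs of these spots in NEJ723 and 0.0965% in NEJ654. In a section, more cells of a type and more RNA per cell cannot be told apart.

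The direction was shared by every member. For each gene the gap was taken as the lowest (CPM + 1) of the 4 tumor tissues over the highest of the remaining 3, so that a gap above 1-fold means no overlap. All 44 members had such a gap, where 42.0% of the 12648 genes that averaged 1 CPM or more did. The gap was at least 2-fold in 32 of the 44, against 8.45% of all genes. None of the 44 lay lower in each of the 4 tissues than in each of the 3, which 16.3% of all genes did. Because the members were chosen with earlier results of these data known, these counts describe the list and test nothing. The mean log2 difference between the 4 and the 3 tissues had a median of 1.96 over the members and 0.40 over all genes. Since most genes leaned toward the tumor tissues at this scaling, the sections were also scaled by factors that centre the genes. With edgeR's TMM factors all 44 members still had a gap, 26 of them of at least 2-fold (6.01% of all genes), while the share of all genes with a gap fell to 30.4%. The median difference of the members was then 1.55 and that of all genes 0.02, so members stood 1.52 above all genes with TMM factors and 1.55 above them without.

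**Figure D1:**
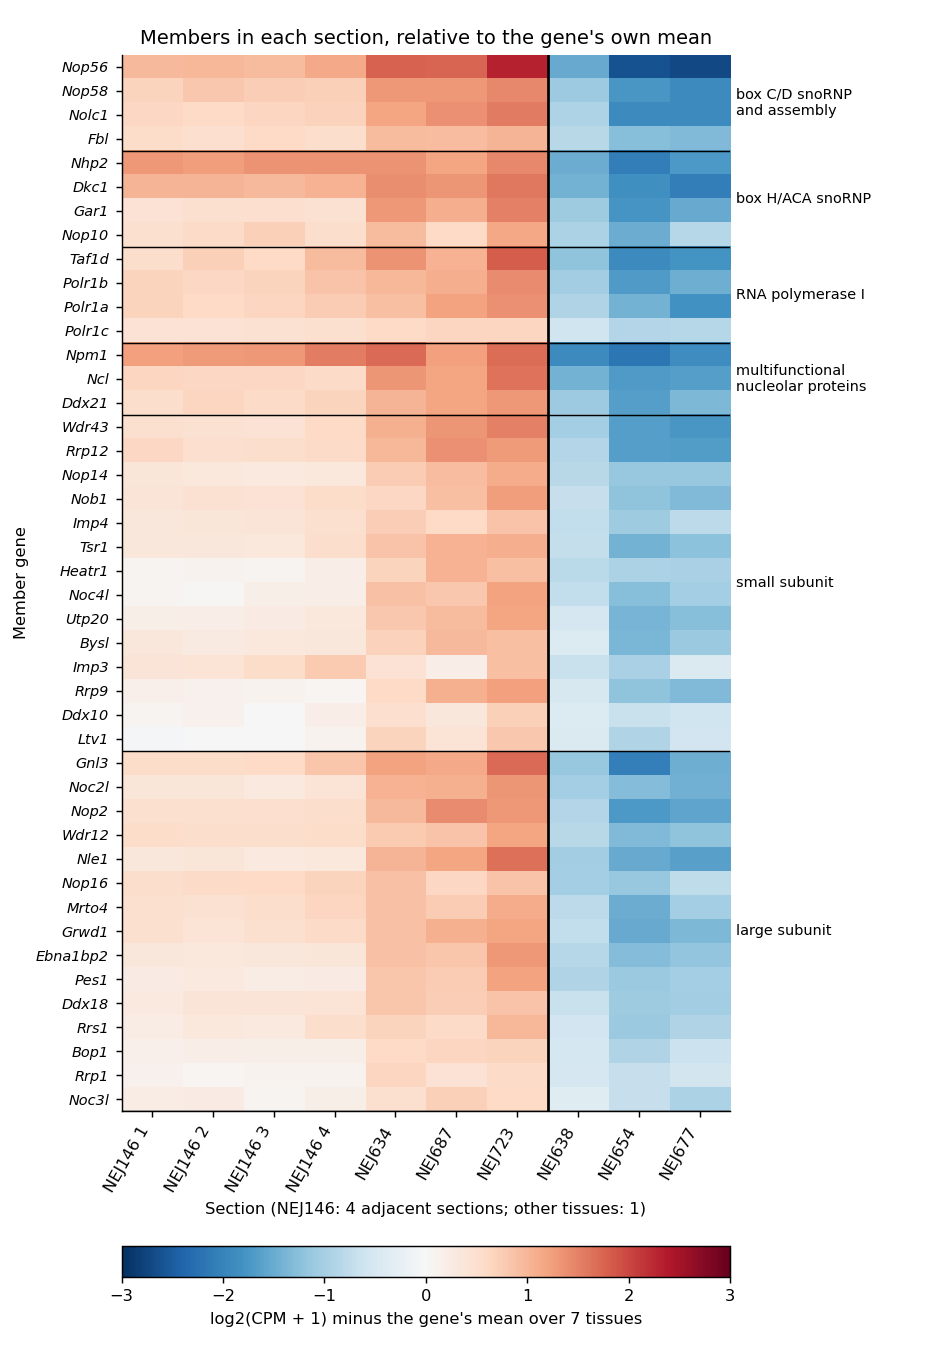
Level of each of the 44 members (rows, grouped by role) in each of the 10 sections (columns), as log2(CPM + 1) minus the gene's own mean over the 7 tissues, from blue (lower) to red (higher). To the left of the thick line are the 4 tissues that the study's text names as tumors, in which all 44 members are higher than in any of the 3 tissues to the right of it.

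The fibrillarin-type (box C/D) snoRNP proteins, which add methyl groups to ribosomal RNA, had gaps of at least 2-fold in 4 of 4 members. Nop56, a core protein of these particles on chromosome 2 (130274430-130279313), was at 173.8 ± 10.7 CPM in NEJ146, 289.5 in NEJ687, 291.7 in NEJ634 and 425.5 in NEJ723. It was at 29.2 in NEJ638, 13.2 in NEJ654 and 12.1 in NEJ677, a gap of 5.79-fold. Even among the remaining 3 tissues Nop56 was uneven, with NEJ638 2.12-fold above the next on the CPM + 1 scale. Nop58, its partner in the particle, ran from 49.99 ± 2.1 CPM in NEJ146 over 73.9 in both NEJ634 and NEJ687 to 81.5 in NEJ723, compared with 13.5, 8.12 and 7.10 in NEJ638, NEJ654 and NEJ677. Fbl, the methyltransferase itself, had the smallest gap of the group, 2.62-fold. It was at 122.2 ± 3.1 in NEJ146, 162.7 in NEJ634, 157.5 in NEJ687 and 170.5 in NEJ723, and at 46.1, 33.4 and 32.5 in NEJ638, NEJ654 and NEJ677. The fourth member, Nolc1, a chaperone of snoRNPs, had a gap of 2.95-fold.

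The box H/ACA proteins, which convert uridine to pseudouridine, all had gaps of at least 2-fold as well. Nhp2 was nearly level over the tumor tissues, with 418.4 ± 12.7 CPM in NEJ146, 425.9 in NEJ634, 382.3 in NEJ687 and 459.9 in NEJ723. The remaining tissues held 58.9 (NEJ638), 38.8 (NEJ654) and 49.9 (NEJ677), a gap of 6.40-fold. Dkc1, the pseudouridine synthase dyskerin, was at 56.4 ± 1.4 in NEJ146, 74.1 in NEJ634, 70.7 in NEJ687 and 84.4 in NEJ723, and at 9.69, 6.94 and 5.75 in NEJ638, NEJ654 and NEJ677. The gap of Dkc1 was 5.37-fold. Nop10 had the most UMIs of the group and its smallest gap, 2.69-fold, between 686.2 ± 48.7 CPM in NEJ146, 697.0 in NEJ687, 894.5 in NEJ634 and 1032 in NEJ723 and 253.6 in NEJ677, 236.4 in NEJ638 and 162.9 in NEJ654. Gar1 lay between them, at 2.87-fold.

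Of the RNA polymerase I genes, Taf1d, a subunit of the promoter selectivity factor, had the largest gap (3.73-fold). Its 4 NEJ146 sections were the most uneven of all members, at 47.7, 54.8, 50.8 and 64.4 CPM. In NEJ687, NEJ634 and NEJ723 it was at 69.3, 85.5 and 118.3 CPM, and in NEJ638, NEJ677 and NEJ654 at 13.8, 8.83 and 8.07. Every NEJ146 section thus stayed well above the remaining tissues. Polr1b, the second largest catalytic subunit, was at 52.6 ± 4.2 in NEJ146, 64.7 in NEJ634, 68.8 in NEJ687 and 87.5 in NEJ723, and at 15.1, 9.13 and 10.9 in NEJ638, NEJ654 and NEJ677. Polr1c, a subunit that RNA polymerase III shares, differed least, with a gap of 2.08-fold. It was at 53.1 ± 1.0, 59.0, 60.7 and 60.9 CPM in NEJ146, NEJ634, NEJ687 and NEJ723, and at 25.0, 20.5 and 20.7 in NEJ638, NEJ654 and NEJ677. Polr1a, the largest subunit, had a gap of 2.99-fold.

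Among the multifunctional nucleolar proteins, Npm1 (nucleophosmin, on chromosome 11 at 33152287-33163206) had the largest gap of all 44 members, 8.56-fold. It was at 829.8 CPM in NEJ687, 899.7 ± 87.1 in NEJ146, 1137 in NEJ723 and 1157 in NEJ634, but at 96.1 in NEJ677, 94.0 in NEJ638 and 77.3 in NEJ654. Npm1 has processed pseudogenes, and reads that such copies share were not resolved here. Ncl, which encodes nucleolin, was spread over the tumor tissues, from 425.6 ± 7.6 in NEJ146 over 632.9 in NEJ687 and 704.0 in NEJ634 to 869.1 in NEJ723. It was at 104.3, 88.0 and 84.4 in NEJ638, NEJ677 and NEJ654, a gap of 4.05-fold. The RNA helicase Ddx21 was at 57.0 ± 2.8, 76.3, 85.2 and 92.8 in NEJ146, NEJ634, NEJ687 and NEJ723 and at 16.8, 11.1 and 13.9 in NEJ638, NEJ654 and NEJ677. Without Npm1, Ncl and Nop10, the 3 members with the most UMIs, the summed gap was 2.89-fold in place of 3.45-fold.

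The 14 assembly factors of the small subunit had the smallest gaps, with a median of 1.85-fold and 6 of 14 at 2-fold or more. Wdr43, a part of the early processome with CACGTG in its window, led them at 2.85-fold. It was at 48.8 ± 2.5 CPM in NEJ146, 73.5 in NEJ634, 87.6 in NEJ687 and 100.7 in NEJ723, against 16.5, 10.3 and 9.60 in NEJ638, NEJ654 and NEJ677. Rrp12, a factor of subunit export, followed at 2.68-fold, with 16.2 ± 0.6, 22.4, 29.2 and 27.4 in NEJ146, NEJ634, NEJ687 and NEJ723 and 5.41, 2.73 and 2.67 in NEJ638, NEJ654 and NEJ677. At the other end, Ltv1, a late factor of the small subunit that also holds CACGTG, had the smallest gap of all members in CPM, 1.37-fold. NEJ146 was at 18.5 ± 1.0 and NEJ638 at 13.2, while NEJ634, NEJ687 and NEJ723 were at 29.8, 24.7 and 32.9 and NEJ654 and NEJ677 at 9.34 and 11.9. Ddx10, Rrp9 and Imp3 were close to it, with gaps of 1.43, 1.51 and 1.57-fold. With TMM factors, and without NEJ146, the smallest gap of all members was that of Imp3.

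The 15 assembly factors of the large subunit had a median gap of 2.33-fold, and 11 of 15 were at 2-fold or more. Gnl3, the GTPase nucleostemin, had the largest gap, 3.39-fold. It was at 113.3 ± 11.05 CPM in NEJ146, 160.8 in NEJ687, 168.4 in NEJ634 and 237.2 in NEJ723, and at 32.6, 25.6 and 16.7 in NEJ638, NEJ677 and NEJ654. Noc2l followed at 2.61-fold, with 77.3 ± 2.6, 124.1, 126.6 and 152.9 in NEJ146, NEJ634, NEJ687 and NEJ723 and 29.0, 23.8 and 21.4 in NEJ638, NEJ654 and NEJ677. Nle1 (Notchless), which acts late in the assembly of the large subunit, spread most over the tumor tissues, as NEJ723 (33.0) was 2.50-fold above NEJ146 (12.6 ± 0.3) on the CPM + 1 scale. NEJ634 and NEJ687 were at 21.1 and 23.5, and NEJ638, NEJ654 and NEJ677 at 4.30, 2.82 and 2.50. Noc3l had the lowest levels of the group and its smallest gap, 1.47-fold, between 5.98 ± 0.34, 7.62, 9.12 and 8.27 CPM in NEJ146, NEJ634, NEJ687 and NEJ723 and 3.75 in NEJ638, 2.82 in NEJ654 and 2.19 in NEJ677. The exact 95% Poisson interval of a section, which covers counting error only, reached at most 23.5% from the value among the members, in Noc3l.

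The snoRNP, polymerase and multifunctional groups held 15 members, all with a gap of at least 2-fold, while 17 of the 29 subunit assembly factors had one. The 9 members with CACGTG had a median log2 gap of 1.15 (7 of 9 at 1 or more) and the 30 with a window but no match had 1.36 (22 of 30). All 9 were subunit assembly factors, and the 17 such factors with a window but no match had a median of 1.05 (9 of 17). Among the 102 other ribosome biogenesis genes 93 had a gap (42.0% of all genes), 21 a gap of at least 2-fold (8.45%) and 1 lay the other way (16.3%). Their median log2 difference was 1.25. The number at 2-fold moved with the tissues and the pseudocount, as it was 46 without NEJ146, 43 without NEJ638 and 8 with a pseudocount of 5. The share of all genes moved in the same direction, to 13.3%, 12.8% and 4.64%. Ppan, an assembly factor of the large subunit, led them with a gap of 4.04-fold (92.2 ± 7.2 CPM in NEJ146 to 193.5 in NEJ723, and 14.6 in NEJ654 to 22.02 in NEJ638), followed by Rrp1b (3.69-fold, 17.4 ± 1.0 to 40.5 against 1.66 to 3.99) and Lyar (3.10-fold, 45.3 ± 2.9 to 80.2 against 8.99 to 13.9). The gene on the other side was Rcl1, a pre-rRNA processing factor. Its CPM was 77.7 in NEJ634, 80.7 in NEJ723, 89.6 ± 3.6 in NEJ146 and 104.7 in NEJ687, all below NEJ638 (142.3), NEJ654 (151.2) and NEJ677 (202.6). Taf1a and Taf1b, further subunits of the polymerase I selectivity factor, overlapped between the 4 and the 3 tissues, unlike Taf1d. Taf1a ran from 4.58 ± 0.43 (NEJ146) to 11.7 CPM in the tumor tissues and from 5.14 to 6.49 in the remaining 3, and Taf1b from 8.10 to 12.9 and from 8.97 to 11.3.

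**Figure D2:**
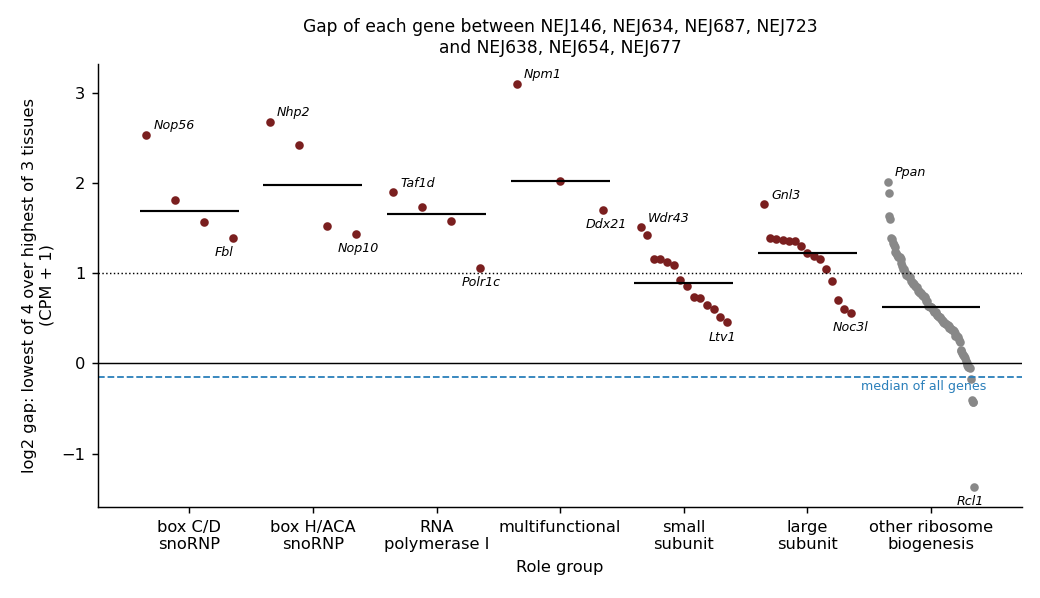
Log2 gap of each gene, the lowest (CPM + 1) of NEJ146, NEJ634, NEJ687 and NEJ723 over the highest of NEJ638, NEJ654 and NEJ677, for the 6 role groups of members (dark red) and the 102 other ribosome biogenesis genes (grey). Black bars are medians, the dotted line marks a 2-fold gap and the dashed line the median of all genes (-0.15). The members run from Ltv1 at 0.45 to Npm1 at 3.10, and Rcl1 is the lowest of the other genes.

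The ends of the order of the tissues recurred from member to member, while NEJ634 and NEJ687 changed places, as did NEJ654 and NEJ677. NEJ723 was the highest of the 4 tumor tissues in 36 of 44 members (34.4% of all genes), NEJ687 in 5 (24.1%) and NEJ634 in 3 (31.2%). NEJ146 was the lowest in 41 (56.4%), and NEJ687 in Npm1, Nhp2 and Imp3. NEJ638 was the highest of the remaining 3 in 40 of 44 (60.4%). Part of this order followed the scaling. With TMM factors the 3 lower tumor tissues drew together, at 4829 (NEJ146), 4867 (NEJ687) and 4871 (NEJ634) in scaled CPM, and NEJ723 stayed highest at 5920, while NEJ677 (1476) passed NEJ638 (1446). NEJ146 was then lowest in 27 members (27.3% of all genes) and NEJ723 highest in 32 (30.0%), and NEJ638 was still the highest of the remaining 3 in 34 (38.6%). NEJ146 differs from the other tissues in its labels (total RNA in place of polyA RNA, another software version), and mitochondrial genes took 6.78% to 7.22% of its UMIs and 2.46% to 3.86% elsewhere. Tissue and batch cannot be told apart in it.

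Further lists of genes differed between the 4 and the 3 tissues. The 5 proliferation markers (Mki67, Top2a, Cdk1, Ccnb2 and Birc5) summed to 391 to 706 CPM in the tumor tissues and 126, 45.4 and 24.1 in NEJ638, NEJ654 and NEJ677, and all 5 had a gap. So had all 10 DNA replication genes, at 440 to 644 CPM against 57.7 to 168.0. Over the tumor tissues these 2 lists did not follow the order of the members. NEJ634 was highest in all 5 proliferation markers and in 7 of the 10 replication genes (31.2% of all genes), and NEJ723 in 0 of either list (34.4%). NEJ638, where most members were highest among the 3 with either scaling (their sum only in CPM), also had mouse Myc at 39.0 CPM, compared with 3.04 to 5.91 in the other 6 tissues. UMIs of the human transgene have no row of their own, so mouse Myc is no measure of the driver. Of all genes, 60.4% were highest of the 3 in NEJ638, and the part of mouse Myc in the members' level there was not tested. The 10 hepatocyte markers ran the other way. Of them, 8 were lower in each tumor tissue than in each of the others (16.3% of all genes). They summed to 28852 to 39369 CPM in the tumor tissues and 106356 to 141586 in the remaining 3, while 3 of the 5 fetal hepatocyte markers (Afp, Igf2 and Dlk1) had a gap. Afp was at 2023 to 4248 CPM in the tumor tissues and 3.79 to 9.63 in the others, but Gpc3 (3.59 to 30.6 against 0.31 to 5.12) and Epcam (2.09 to 58.8 against 1.93 to 5.08) overlapped. The 11 erythroid markers reached 9535 CPM in NEJ146 and 8841 in NEJ687 but 949 in NEJ634 and 2540 in NEJ723, so they did not follow the order of the members. Of these 11, 9 had a gap. All 8 neutrophil lineage markers had a gap, 348 to 1156 CPM against 9.32 to 23.4, with NEJ687 highest. Over all genes the share with a gap was 42.0%. Camp, Ngp, Ltf, Prtn3, Elane and Mpo of this list were among the genes most raised in tumors in the study's single-cell data. So were Afp and Igf2 of the fetal list and Ermap and Rhd of the erythroid list, so their direction was known beforehand. The 6 endothelial markers summed to less in each tumor tissue (79.4 to 179.1 CPM) than in any of the remaining 3 (203.8 to 242.5). Singly, 3 of the 6 were lower in this way (16.3% of all genes). The sums of the macrophage, stromal and bile duct markers overlapped between the 4 and the 3 tissues, and those of the lymphocyte markers were at 8.27 to 12.9 CPM against 5.14 to 7.88. The part of any of these cells in the members' difference was not tested.

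Within a section, the question was how even the members were over the spots. Spots over tissue numbered 1890 to 4458 in the 6 single sections and, taking spots of at least 8000 UMIs, 4171 to 4878 in NEJ146. NEJ146 had no in-tissue calls, so its spots can include some off the tissue. The part of this unlike rule in its spread was not tested. The median spot held 69 to 180 member UMIs in the tumor tissues and 16 to 18 in the remaining 3. After the part due to counting was subtracted, the coefficient of variation (CV) of the summed members over spots was 8.36% in NEJ723, 10.2% in NEJ687 and 10.6% in NEJ634. It was 20.6% ± 1.5 in NEJ146 (SD, n = 4 sections, from 18.7% to 22.1%). In the remaining tissues it was 6.19% in NEJ638, 7.41% in NEJ677 and 9.35% in NEJ654. The single tumor sections and the remaining 3 tissues thus overlapped, and all 4 sections of NEJ146 lay above both.

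A sum averages out variation of its single genes, so the summed members were set beside other sums and single members beside single genes. In NEJ723, NEJ687 and NEJ634 the summed proliferation markers had a CV of 18.9%, 22.3% and 18.3% and the summed hepatocyte markers one of 19.9%, 16.1% and 28.4%. In NEJ146 these were 37.0% ± 1.9 and 43.7% ± 3.2 (SD, n = 4). These sums hold 5 and 10 genes where the members are 44. The 102 other ribosome biogenesis genes lay at 8.22% to 9.93% in the 3 single tumor sections, against 8.36% to 10.6% for the members, and at 14.9% ± 1.1 in NEJ146. Taken one by one, the 42 members that averaged 10 CPM or more had a median CV of 11.9% in NEJ723, 14.4% in NEJ634, 16.2% in NEJ687 and 23.3% to 25.2% in the NEJ146 sections. The median over all genes at that level was 15.5%, 19.6% and 19.3% in the same 3 sections and 24.1% to 25.8% in NEJ146, so a single member was about as uneven there as the median gene. The most uneven of these members reached 26.8% in NEJ723 (Polr1b), 34.6% in NEJ634 (Rrp12) and 35.7% in NEJ687 (Rrp9). In NEJ146 the most uneven one was another in each section, Taf1d (34.6%), Rrp9 (36.1%), Rrp12 (40.8%) and Utp20 (39.1%), and Rrp12 was at 16.3% to 27.9% in the other 3 sections. The values of Rrp12 in NEJ634 and Rrp9 in NEJ687 rest on few counts, 1264 UMIs over 1890 spots and 1621 over 4458. Of all 44 members, 12 in NEJ723, 8 in NEJ634 and 2 in NEJ687 had no measured spread beyond counting error. NEJ146 had 4, 2, 1 and 0 such members in sections 1 to 4, while NEJ638 had 12, NEJ677 had 17 and NEJ654 had 18. No share of all genes was set beside these counts. A spread can go unmeasured where UMIs are few, so such members were not shown to be even. Their CV values are negative and were kept in the medians. Spots that the deposited calls place off the tissue still held members at 87.2% to 95.7% of the tissue's CPM, and the part of this RNA in the spread of the members was not tested.

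**Figure D3:**
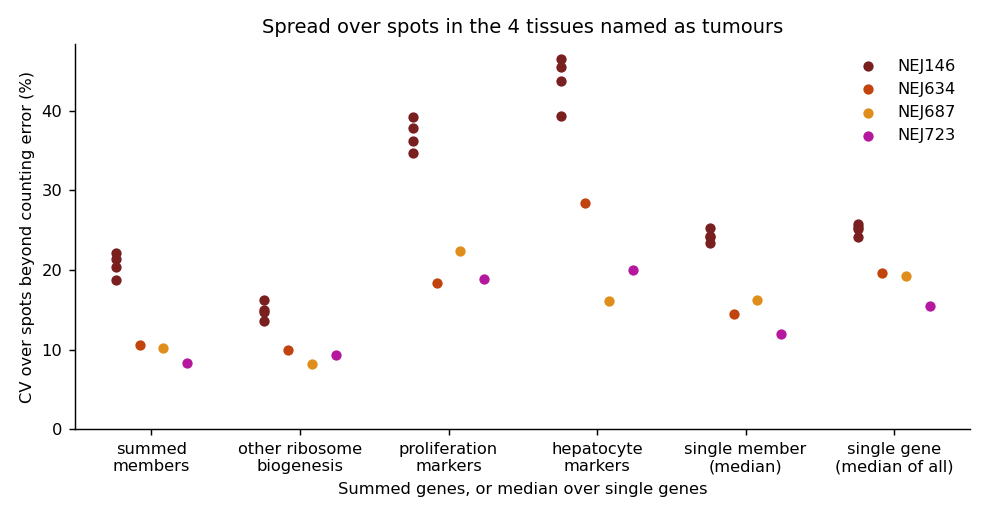
CV over spots beyond counting error, in percent, in the 4 tissues that the study's text names as tumors, for 4 sums of genes and, at the right, the median over single members and over all single genes (both of genes that averaged 10 CPM or more). Each point is a section (4 for NEJ146). The summed members lie at 8.36% to 22.1% and the median of single members at 11.9% to 25.2%.

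The members' share of UMIs had a spatial order in NEJ146 and NEJ634, and a weaker measured one in NEJ687 and NEJ723 once shallow spots were left out. Moran's I, a correlation of each spot with its neighbors on the array, is 0 where neighbors are unrelated. Counting error was not subtracted here, and it pulls the index toward 0. The median spot held 180 member UMIs in NEJ634, 137 in NEJ723, 69 in NEJ687, 18 in NEJ638 and 16 in NEJ654 and NEJ677. Values near 0 therefore do not show a lack of order, and the part of depth in these differences was not tested. For the summed members it was 0.51 ± 0.01 in NEJ146 (SD, n = 4) and 0.35 in NEJ634. In NEJ687 and NEJ723 it was 0.03 and -0.01 over all tissue spots, but 0.15 and 0.24 over tissue spots with at least 8000 UMIs. NEJ638, NEJ654 and NEJ677 were at 0.04, 0.04 and -0.02, and at 0.04, 0.06 and -0.0019 over the deeper spots.

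**Figure D4:**
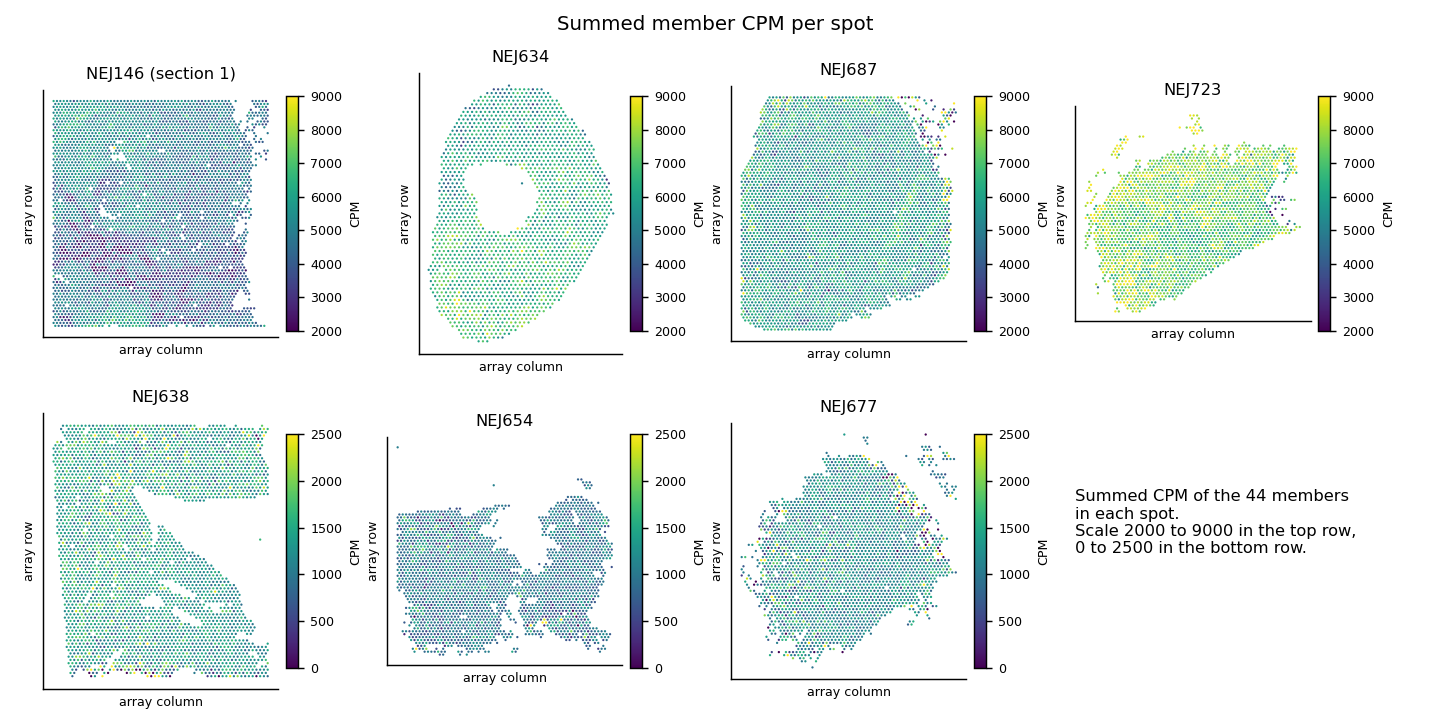
Summed CPM of the 44 members in each tissue spot of at least 500 UMIs (NEJ146 section 1: spots of at least 8000 UMIs), on the array's rows and columns. The color scale runs from 2000 to 9000 CPM in the top row (tumor tissues) and from 0 to 2500 CPM in the bottom row. NEJ723 is mostly bright, with a lower Moran's I than NEJ634, while NEJ146 has a broad darker region.

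In NEJ146 the members were lower in the spots with the most hepatocyte RNA. The spots of each section were split into 5 quintiles by the share of UMIs from the 10 hepatocyte markers. The 4 NEJ146 sections had the members at 5139 ± 62 CPM in the lowest quintile and 3490 ± 168 in the highest, a ratio of 0.68 ± 0.03 (SD, n = 4). Most of this fall came in the last step, as section 1 went from 5110 over 5018, 4806 and 4521 to 3327. All 44 members were lower in the highest than in the lowest hepatocyte quintile in each of the 4 sections, as were 53.8%, 50.3%, 48.2% and 51.2% of all genes in sections 1 to 4. With the hepatocyte UMIs taken out of the total it was still 44 in each section, and 44.3% to 50.2% of all genes. Some further markers also ran against the members over the same spots. In each section (4171 to 4878 spots of 1 library) Spearman's rho of the summed members was -0.53 to -0.40 with the hepatocyte markers, -0.35 to -0.27 with the stromal, -0.33 to -0.26 with the bile duct and -0.23 to -0.17 with the endothelial markers, whose part in the hepatocyte order was not tested. In the highest hepatocyte quintile the summed members were above every remaining tissue. The lowest quintile value in the tumor tissues (3327) was 2.33 times the highest in the 3 (1426, in NEJ638). Quintiles were ranked within each section and were not matched in hepatocyte RNA. The 90th percentile of hepatocyte CPM over spots was 41624 ± 4858 in NEJ146, while the sums of the 3 were 106356 to 141586.

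The single tumor sections showed smaller steps. From the lowest to the highest hepatocyte quintile the members went from 6587 to 5908 CPM in NEJ634, from 5886 to 5332 in NEJ687 and from 7898 to 6770 in NEJ723. In the remaining 3 tissues they went from 1426 to 1263 (NEJ638), 1068 to 884 (NEJ654) and 1269 to 1095 (NEJ677), so the ratios there (0.83 to 0.89) overlapped with those of the single tumor sections (0.86 to 0.91). Lower in the highest quintile were 42 of 44 members in NEJ634 (79.2% of all genes), 41 in NEJ687 (56.6%) and 42 in NEJ723 (73.4%). In NEJ638, NEJ654 and NEJ677 they were 33 (79.3%), 37 (74.8%) and 35 (70.6%), near the share of all genes. Some further markers ran against the members in the single tumor sections too, but not all those of NEJ146. Spearman's rho over the 1890 spots of NEJ634 was -0.27 for the hepatocyte, -0.26 for the neutrophil lineage, -0.25 for the macrophage and -0.19 for the endothelial markers. In NEJ687 it was -0.12 for the hepatocyte and -0.06 for the macrophage markers, or -0.19 for both over spots of at least 8000 UMIs, and in NEJ723 -0.31 and -0.04, or -0.44 and -0.15. For the stromal and bile duct markers, negative in NEJ146, rho over all tissue spots was 0.09 and 0.10 in NEJ634 and 0.08 and 0.12 in NEJ723. In NEJ687 these were -0.03 and -0.02. The part of these markers was not tested. The hepatocyte UMIs are part of the total to which CPM refers. With them taken out of the total, the ratio was 0.70 ± 0.02 in NEJ146, 0.88 to 0.92 in the single tumor sections and 0.89 to 0.93 in the remaining 3. The mitochondrial share moved along too, as the members' ratio between its highest and lowest quintile was 0.81 ± 0.03 in NEJ146 and 0.83 to 0.89 in the other tissues. Its rho with the members was -0.41 in NEJ634, -0.25 in NEJ687 and -0.33 in NEJ723. Each was further from 0 than that of the hepatocyte markers, but not over the deeper spots of NEJ723 (-0.38 against -0.44). For spot total UMIs, rho was -0.21, 0.03 and -0.08 in NEJ634, NEJ687 and NEJ723. The part of the mitochondrial share and of spot depth in the hepatocyte order was not tested.

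In NEJ146 the members were higher where proliferation markers were higher. From the lowest to the highest quintile of those 5 markers the members went from 3770 ± 181 to 5221 ± 151 CPM, a ratio of 1.39 ± 0.03 (SD, n = 4). At least 43 of 44 members were higher in the highest quintile in each of its sections, as were 61.5%, 64.9%, 63.0% and 59.5% of all genes in sections 1 to 4. NEJ634 had a ratio of 1.14, with 44 members higher (67.9% of all genes). NEJ723 followed at 1.10 with 40 members (69.2%), and NEJ687 at 1.09 with 35 (62.2%). No order was read in NEJ638, NEJ654 and NEJ677, because the median spot there held at most 1 UMI of the 5 markers and 23.8%, 54.5% and 76.1% of the spots held none, so that their quintiles split ties. Over quintiles of the fetal hepatocyte markers the ratio was 1.29 ± 0.04 in NEJ146 and 1.09, 1.03 and 0.97 in NEJ634, NEJ687 and NEJ723. For the erythroid markers it was 1.08 ± 0.02 in NEJ146, or 1.12 ± 0.02 with erythroid UMIs out of the total, and 0.95 to 1.04 in the other tissues. Spots are no replicates of a tissue, and these ratios are given without a test.

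**Figure D5:**
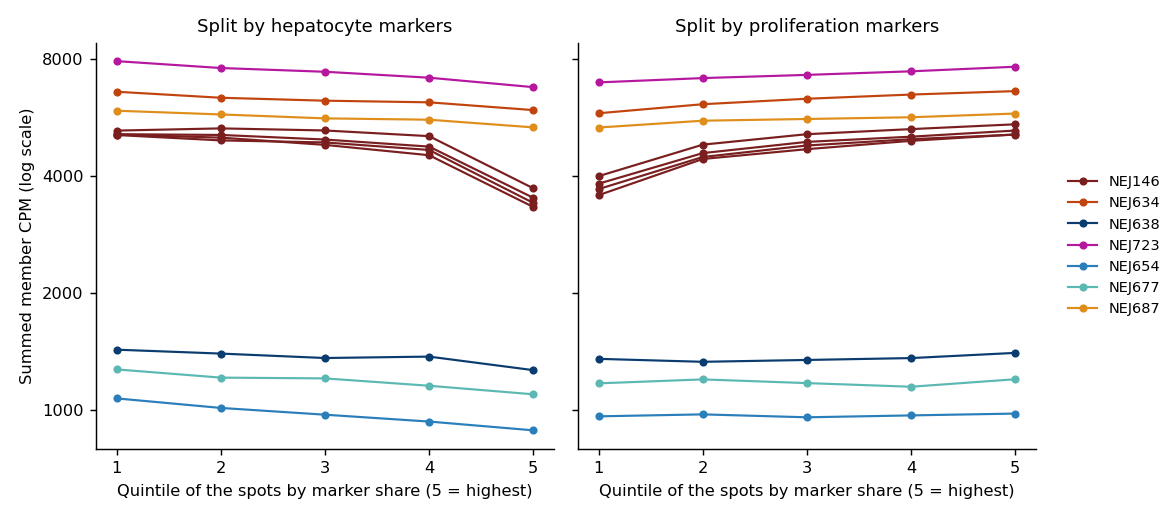
Summed member CPM (log scale) over quintiles of the spots of each section, ranked by the share of UMIs from the 10 hepatocyte markers (left) or the 5 proliferation markers (right). Each line is a section, with 4 lines for NEJ146. The NEJ146 lines drop in the highest hepatocyte quintile to 3327 to 3716 CPM and start lowest in the lowest proliferation quintile, while the lines of NEJ638, NEJ654 and NEJ677 reach at most 1426 CPM. In these 3 the proliferation quintiles mostly split spots with 0 or 1 UMI of the markers.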

How the data were processed

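Mouse tissue sections were measured with 10x Genomics Visium. Deposited were the authors' raw UMI counts for each gene in each spot, unfiltered and not normalised. The submitters' processing notes name Cell Ranger 6.0 for NEJ146 and Space Ranger 1.3 with mm10 for the other 6 tissues, while the matrix headers name Cell Ranger 4 and the study's methods an earlier Space Ranger. The genome build of NEJ146 is not given in the sources used here. Reads of near-identical gene copies depend on that software's handling of multiple matches.

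Groups were the 7 tissues of the labels (NEJ146 with 4 sections, others with 1). The sections held 61627315 to 117556249 UMIs each. Deposited in-tissue calls gave the spots, and spots of at least 8000 UMIs in NEJ146, for which array positions were taken from the same barcodes in other sections. This rule is loose, because in the other 6 sections 50.6% to 93.6% of such spots were over tissue. Spot barcodes belong to the array and recur in every section. No doublet caller was run. UMIs were summed over spots and expressed as CPM. Fold gaps used a pseudocount of 1, and all genes of mean 1 CPM or more were the background. Intervals are exact 95% Poisson intervals and cover counting error only. The CV over spots was the moment estimate beyond Poisson counting, and Moran's I used adjacent spots. No test of 4 tissues against 3 was run, since the labels do not give tumor or normal liver for a tissue. The functions were tested on simulated data. Members and lists were chosen with earlier results of these data known. The genes named with every value were, in each role group, those with the 2 largest and the smallest gap, with Ncl, Npm1, Fbl and Nle1, and of the other pathway genes the 3 largest and 3 smallest gaps. Alternatives were TMM (edgeR 4.0.16) and median-of-ratios scaling (DESeq2 1.42.0, R 4.3.3), other totals, spot rules, pseudocounts and backgrounds, and leaving out sections or tissues. Python 3.11.15 with scipy 1.17.1 was used. Gene positions are from GENCODE M21 (GRCm38), in which no member shared exons with another counted gene on its strand.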

Additional observations from a re-analysis of the deposited data

Results flagged for a closer look

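Over the 4 adjacent NEJ146 sections, 45 values (44 members and their sum) were examined for a section far from the other 3, and 4 had one, where chance gives about 1 in 20. Tsr1, a maturation factor of the small subunit, was at 45.7 CPM in section 4 and 39.8 to 40.4 in the others. Gnl3 was at 129.7 CPM in section 4, compared with 106.6 to 109.8, and Heatr1 at 23.9 there, compared with at most 22.3. Ddx18, an RNA helicase of the large subunit, was low in section 1, at 25.6 CPM against 27.5 to 27.8. None of these differences approached the distance to the remaining 3 tissues, since the lowest Ddx18 section stood above 12.6 CPM in NEJ638.

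Spots that the deposited calls place off the tissue, which entered no comparison, held the members at 6599 CPM (NEJ723), 5445 CPM (NEJ634) and 5369 CPM (NEJ687) in the tumor sections. The corresponding sums were 1242 CPM (NEJ638), 1064 CPM (NEJ677) and 860 CPM (NEJ654). These spots had medians of 6660 to 11895 UMIs. The order of the tissues in them was that of the spots over tissue. NEJ146 had no such calls, so spots off the tissue can be among those used there.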

How the results depend on the processing

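No paired analysis was possible because only NEJ146 had more than 1 section and no test was run. All 44 members kept a gap in each of the 22 alternatives that recompute it, and none reversed. The share of all genes with a gap ran from 29.3% to 51.8% over these. The smallest log2 gap of a member was 0.45 (Ltv1), but 0.12 with TMM and 0.07 with median-of-ratios factors, both in Imp3. In log2, the summed gap was 1.78, and 1.71 with TMM, 1.65 with median-of-ratios factors, 1.85 without mitochondrial genes, 1.63 without the 50 highest genes, 2.05 without NEJ146 and 1.99 without NEJ638. The members' median difference of 1.96 became 1.55 with TMM, 1.52 with median-of-ratios factors, 1.74 without the 50 highest genes, 2.09, 1.83, 2.11 and 1.83 without NEJ146, NEJ723, NEJ638 and NEJ654, and 2.01 and 1.72 with pseudocounts of 0.1 and 5. Of the other ribosome biogenesis genes, 21 had a 2-fold gap, and 13 with median-of-ratios factors, 46 without NEJ146, 43 without NEJ638 and 8 with a pseudocount of 5. In the same order, the share of all genes was 8.45%, 5.83%, 13.3%, 12.8% and 4.64%. The range of the sum over the tumor tissues (0.65) became 0.29 with TMM, 0.30 with median-of-ratios factors, 0.59 without mitochondrial genes, 0.55 without the 50 highest genes, 0.38 without NEJ146 and 0.42 without NEJ723. The range over the remaining 3 (0.49) became 0.38 with TMM, 0.41 with median-of-ratios factors, 0.28 without NEJ638 and 0.20 without NEJ654. With median-of-ratios factors 25 members had a 2-fold gap, against 5.83% of all genes, and 29.3% of all genes had a gap of any size.

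Without Npm1, Ncl and Nop10 the CV was 9.86% in NEJ723 and 8.93% in NEJ638, and Moran's I 0.40 in NEJ146 and 0.30 in NEJ634. Moran's I in NEJ146 was 0.50 at 4000 UMIs, 0.54 at 12000 UMIs and 0.44 with a mitochondrial rule. With spots within 2 steps it was 0.45 in NEJ146, 0.28 in NEJ634 and 0.014 in NEJ723. Over in-tissue spots with 500 UMIs or more it was 0.095 in NEJ687 and 0.24 in NEJ723, and over those with 8000 or more 0.15, 0.24, 0.061 and -0.0019 in NEJ687, NEJ723, NEJ654 and NEJ677, so the sign in NEJ723 rests on shallow spots.

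Leaving out each NEJ146 section in turn, the summed gap stayed within 1.76 to 1.80, the median difference within 1.95 to 1.96, the range over the tumor tissues within 0.63 to 0.68 and over the remaining 3 at 0.49. It left 44 members with a gap, 32 with a 2-fold gap, 0 reversed, 93 other pathway genes with a gap and 19 to 24 with a 2-fold gap. Of all genes, 41.7% to 42.4% then had a gap and 8.3% to 8.58% a 2-fold gap. The NEJ146 CV was 20.1% to 21.3% and Moran's I 0.51 to 0.52.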

Other observations

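The 80 cytosolic ribosomal protein genes, a list chosen after values had been seen, encode the proteins that the members assemble with ribosomal RNA. All 80 had a gap (42.0% of all genes), and in 71 it was at least 2-fold (8.45% of all genes). Other scalings were not run for this list. They summed to 145993 CPM in NEJ687, 189813 in NEJ634, 203115 in NEJ723 and 210195 ± 10655 in NEJ146 (SD, n = 4), compared with 40436 in NEJ654, 50536 in NEJ638 and 51655 in NEJ677. Their order over the tumor tissues was not that of the members, since NEJ146 was the lowest of 4 in 1 of the 80 and NEJ687 in 76.

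Max, the partner of MYC, was at 19.0 ± 0.5 CPM in NEJ146 and 22.8 to 26.9 in NEJ634, NEJ723 and NEJ687, compared with 7.92 to 12.4 in the remaining 3 tissues. Mycl, another gene of the family, ran the other way, at 0.34 to 2.08 CPM in the tumor tissues and 4.77 to 8.73 in the remaining 3.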
